A study of Mus musculus with 4 samples.

Results

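Desmosome and plakin genes were followed through 4 RNA-seq libraries of NMuMG cells, an epithelial line from mouse mammary gland that passes into a mesenchymal state when given TGFβ (epithelial-to-mesenchymal transition, EMT). The group was defined by name: Dsp, Dsg2, Dsc2, Pkp1, Pkp2, Pkp3, Ppl, Evpl, Perp and Dst, 10 genes, of which 9 had a row among the 21971 genes of the count table. Dsc2, a desmocollin gene, was not analysed here.

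Cells stably expressed either a mutated human TRF1, a telomere-binding protein (TRF1ΔN), or that protein joined to the Vp16 transcription activation domain (Vp16-TRF1ΔN). The study used the Vp16 fusion to raise RNA like TERRA, the non-coding transcript of telomeres. All cells grew in DMEM with fetal bovine serum and insulin. Each line was taken after 24 h of TGFβ (5 ng/ml) and at 0 h without it. The groups were therefore Vp16-TRF1ΔN at 24 h, Vp16-TRF1ΔN at 0 h, TRF1ΔN at 24 h and TRF1ΔN at 0 h, with 1 library each and no replicates. The TRF1ΔN line is itself a line with an overexpressed construct. The labels name neither a parental line nor a 24 h culture without TGFβ, so an effect of TGFβ cannot be told apart from one of the 24 h themselves. Nothing in the labels says how many clones a line holds.

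Desmosomes are spot-like junctions that tie the keratin filaments of neighbouring epithelial cells together. Desmosomal cadherins (desmogleins and desmocollins) bridge the gap between cells, the armadillo proteins plakoglobin and the plakophilins sit beneath them, and desmoplakin, a plakin, carries the link to keratin. Other plakins serve elsewhere: periplakin and envoplakin also build the cornified envelope of skin, and dystonin (Dst) anchors filaments at hemidesmosomes or links actin and microtubules, depending on the isoform. Junctions of this kind are commonly described as being taken apart in EMT.

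Promoter windows, placed by RefSeq starts, are shown for desmoplakin and dystonin only. Those of the other members were not examined. Dst passed the test of TGFβ given further on and Dsp did not. The windows are on GRCm38.p6 and cover 250 bases before to 50 after a start site. Capitals mark CACCTG or its reverse complement CAGGTG, the E-box that Snail and Zeb repressors are known to bind. The Dsp window lies at chr13:38151044-38151343 on the plus strand, and the windows of Dst, which has 2 RefSeq starts, lie at chr1:34011345-34011644 and chr1:34160010-34160309, also on the plus strand.
Dsp: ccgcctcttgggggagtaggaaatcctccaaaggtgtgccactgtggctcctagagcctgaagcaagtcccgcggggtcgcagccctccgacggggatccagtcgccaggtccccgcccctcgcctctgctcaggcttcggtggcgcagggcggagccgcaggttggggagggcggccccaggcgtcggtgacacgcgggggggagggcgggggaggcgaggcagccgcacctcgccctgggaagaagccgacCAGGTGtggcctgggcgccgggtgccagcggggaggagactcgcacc
Dst, first start: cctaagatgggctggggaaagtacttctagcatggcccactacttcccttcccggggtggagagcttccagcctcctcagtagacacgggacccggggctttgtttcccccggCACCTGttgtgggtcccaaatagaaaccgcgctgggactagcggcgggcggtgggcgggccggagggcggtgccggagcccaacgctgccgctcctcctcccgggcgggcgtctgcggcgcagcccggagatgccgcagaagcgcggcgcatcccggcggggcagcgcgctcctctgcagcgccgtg
Dst, second start: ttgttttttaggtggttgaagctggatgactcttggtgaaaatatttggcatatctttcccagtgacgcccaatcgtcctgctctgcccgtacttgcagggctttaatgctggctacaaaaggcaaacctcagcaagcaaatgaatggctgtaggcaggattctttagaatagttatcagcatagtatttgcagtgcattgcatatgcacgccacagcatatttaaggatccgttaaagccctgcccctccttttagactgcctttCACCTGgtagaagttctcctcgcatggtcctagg

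Each of the 3 windows held 1 such E-box. It lay 4 bases past the start of Dsp on the minus strand, 137 bases before the first Dst start and 17 bases past the second, both on the plus strand. Of all 32851 mouse windows of the same length 20.2% held this motif on either strand. The AP-1 motif TGANTCA (in 7.81% of windows) and the grainyhead-like core AACCGG (6.83%) were in none of the 3 windows, and GTCTG or CAGAC, the SMAD box (49.6%), was in the first Dst window of the 3, 27 bases before the start. None of these letters overlapped another motif searched. G and C made up 73.0% of the Dsp window, 70.3% of the first and 46.0% of the second Dst window, against a median of 52.7% over all windows. Gene counts do not tell which Dst start was used.

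The libraries held 35418985 to 45983910 gene counts, and all 9 measured members passed the filter on low counts and averaged at least 1 CPM (counts scaled to the size of the library). The construct row VP16 had 27 and 15 counts in the Vp16-TRF1ΔN libraries at 24 h and 0 h, against 1 and 0 in the TRF1ΔN libraries, which matches their labels. The row TRF1DN had 159 and 123 counts in Vp16-TRF1ΔN at 24 h and 0 h, against 7798 and 1863 in TRF1ΔN, so the level of the construct differed between the lines and, in TRF1ΔN, between the times. Of the markers that define epithelial cells Krt8, Krt18 and Cdh1 were abundant, whereas Epcam had at most 18 counts and Esrp1 at most 3 in a library. Of 9 tested epithelial markers 3 rose with TGFβ and 4 fell. Cldn4 rose most (log2 change 8.496, adjusted p = 0.000858, edgeR). It had 152 and 1 counts at 24 h and 0 h in Vp16-TRF1ΔN and 563 and 1 in TRF1ΔN. Of 7 tested mesenchymal markers 5 rose and 1, S100a4, fell (log2 change -1.44). Vim was abundant at 0 h (3156 CPM in Vp16-TRF1ΔN, 3210 CPM in TRF1ΔN) and did not pass (adjusted p = 0.147, edgeR). Markers of leukocytes, endothelium, fibroblasts and fat were mostly scarce but not all at 0. Ptprc (leukocytes) had at most 7 counts in a library, Pecam1 (endothelium) at most 3, Dcn (fibroblasts) at most 2 and Adipoq (fat) at most 1. Other genes of these lists were higher, and those named next were chosen after their values were seen. Csf1r, a macrophage receptor, had 21 and 2 counts at 24 h and 0 h in Vp16-TRF1ΔN and 101 and 1 in TRF1ΔN, Cdh5 of endothelium had 24 and 5, and 50 and 4, and Pdgfra of fibroblasts had 75 and 33, and 114 and 26. All 3 rose with TGFβ (adjusted p = 0.00462, 0.0068 and 0.00863, edgeR). Cidec of fat cells fell (adjusted p = 0.00942), with 1 and 25 counts in Vp16-TRF1ΔN and 0 and 17 in TRF1ΔN, and Cd68, with 110 to 150 counts, did not pass. Summed over each list, markers of leukocytes (5 of 7 with a row) ran from 3.67 to 5.44 CPM in the 4 libraries and those of fat cells (3 of 5) from 0.0584 to 0.626 CPM. Endothelial markers (4 of 5) summed to 0.905 and 1.38 CPM at 24 h, against 0.209 and 0.189 CPM at 0 h, and fibroblast markers (3 of 5) to 2.19 and 2.80 CPM, against 0.812 and 0.588 CPM, in Vp16-TRF1ΔN and TRF1ΔN in turn. Their part in the results was not tested. In such bulk cultures fewer cells of a type and less RNA per cell cannot be told apart.

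TGFβ did not shift the desmosome and plakin genes in 1 direction. Averaged over both lines, Pkp1, Dst and Pkp2 rose, Ppl and Perp fell, and Dsp, Dsg2, Pkp3 and Evpl did not pass the test. These 3 and 2 of 9 members stand beside 23.1% of all 14305 genes tested that rose and 25.4% that fell, so the share of members called was close to that of all genes. The median log2 change was 0.34 over the members and -0.01 over all genes tested. The test is edgeR's quasi-likelihood test of the TGFβ term in an additive fit with the line, in which the departure between the lines' responses supplies the only residual degree of freedom. Adjusted p (Benjamini-Hochberg over all genes) rests on that departure, moderated with values from other genes (3.39 prior degrees of freedom). The departure mixes differences between the lines' responses with spread among the libraries. That spread may be technical, since nothing says that the 4 libraries came from separate cultures. The SE is the log2 change divided by the root of the F statistic.

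**Figure D1:**
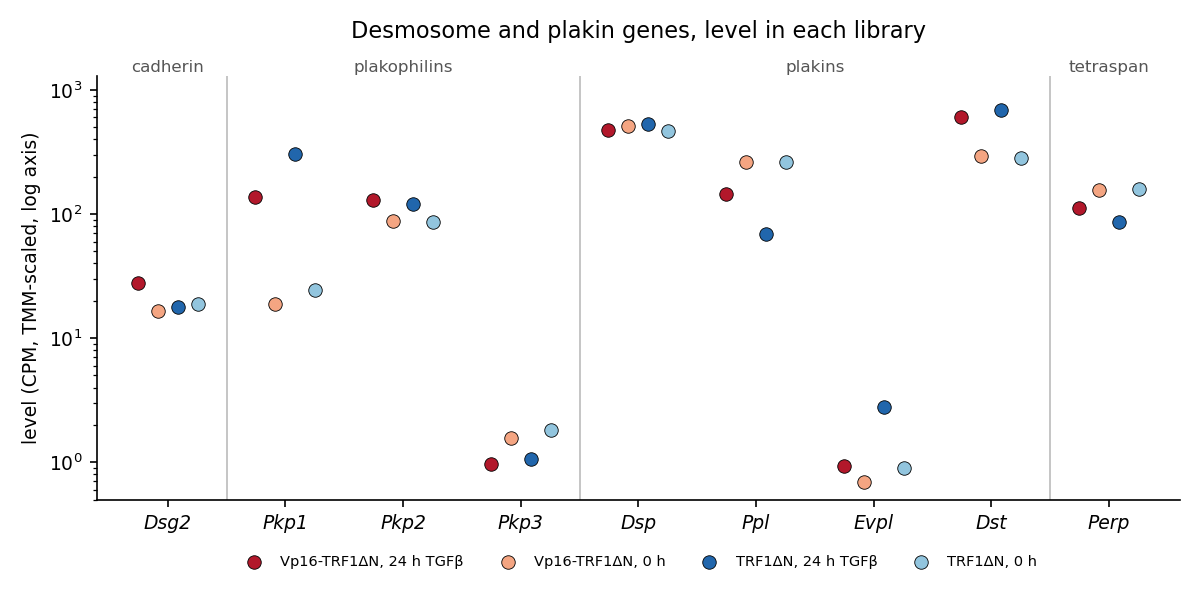
Level of each measured member (CPM, log axis) in the 4 libraries, 1 point per library, with genes ordered by role. Pkp1 stood at 137 and 304 CPM at 24 h and at 18.7 and 24.3 CPM at 0 h, while Dsp stayed between 465 and 534 CPM in every library.

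Of the plakophilins, which cluster desmosomal cadherins and bind desmoplakin, Pkp1 and Pkp2 rose and Pkp3 did not pass the test. Pkp1, the plakophilin of stratified epithelia such as epidermis, stood at 137 CPM at 24 h and 18.7 CPM at 0 h in the Vp16-TRF1ΔN line, and at 304 CPM at 24 h and 24.3 CPM at 0 h in the TRF1ΔN line. Both 24 h libraries were far above both 0 h libraries. It rose by 3.26 ± 0.21 (SE) on the log2 scale (adjusted p = 0.00139, edgeR quasi-likelihood test), the largest change among the members. Within the lines it was 7.32-fold higher in Vp16-TRF1ΔN (95% counting interval 6.79 to 7.902) and 12.5-fold higher in TRF1ΔN (11.8 to 13.3). Such intervals are exact, conditional on the sum of both counts, and cover counting error only.

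Pkp2, the plakophilin of simple epithelia and heart muscle, was at 130.1 CPM at 24 h and 88.6 CPM at 0 h in Vp16-TRF1ΔN, and at 121 CPM at 24 h and 86.7 CPM at 0 h in TRF1ΔN. The libraries of each time lay close together and the times did not overlap. It rose by 0.51 ± 0.06 (adjusted p = 0.00513, edgeR), with ratios of 1.47 (1.41 to 1.53) in Vp16-TRF1ΔN and 1.39 (1.33 to 1.45) in TRF1ΔN. Pkp3, found in nearly all desmosome-bearing epithelia, was scarce, with 33 and 67 counts at 24 h and 0 h in Vp16-TRF1ΔN and 45 and 87 in TRF1ΔN. Both 24 h libraries were below both 0 h libraries, but its log2 change of -0.73 ± 0.23 did not pass (adjusted p = 0.0568, edgeR). It passed when no filter on low counts was used (adjusted p = 0.0419) and when libraries were scaled by their totals (0.0408), and over all alternatives its adjusted p ran up to 0.429 (DESeq2).

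The make-up of the plakophilin counts differed between the times in both lines. Pkp1 took 51.1% of the counts of the 3 genes in Vp16-TRF1ΔN at 24 h (exact 95% binomial interval 50.03 to 52.1) and 17.2% at 0 h (16.1 to 18.3). In TRF1ΔN it took 71.4% at 24 h (70.8 to 72.1) and 21.6% at 0 h (20.5 to 22.7). Pkp2 held 48.6% and 81.4% in Vp16-TRF1ΔN at 24 h and 0 h, and 28.3% and 76.8% in TRF1ΔN. Among these 3 genes the commonest RNA was thus Pkp1 in both 24 h libraries, by a narrow margin in Vp16-TRF1ΔN, and Pkp2 in both 0 h libraries. Pkp4, a relative described further on, was not among them. At 0 h it had more counts than Pkp2, 4961 in Vp16-TRF1ΔN and 5645 in TRF1ΔN. Pkp3 was at most 1.62% in any library.

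**Figure D2:**
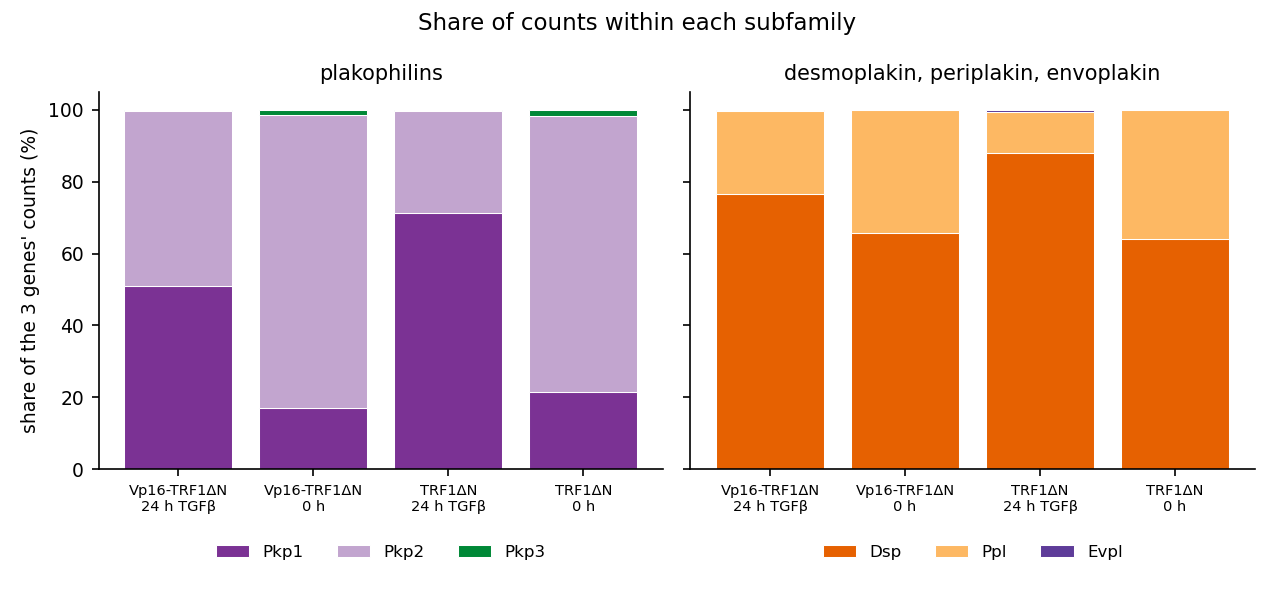
Share of counts (%) within the plakophilins (left) and within desmoplakin, periplakin and envoplakin (right), 1 bar per library. Pkp1 made up 51.1% and 71.4% of the counts of Pkp1, Pkp2 and Pkp3 at 24 h, against 17.2% and 21.6% at 0 h. Ppl made up 23.2% and 11.4% of those of Dsp, Ppl and Evpl at 24 h, against 34.1% and 35.9% at 0 h.

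Desmoplakin and desmoglein did not pass the test. Dsp, the obligate link from the junction to keratin, had 475 CPM at 24 h and 509 CPM at 0 h in Vp16-TRF1ΔN, and 534 CPM at 24 h and 465 CPM at 0 h in TRF1ΔN. The lines moved in opposite directions, with ratios of 0.933 (0.914 to 0.952) in Vp16-TRF1ΔN and 1.15 (1.13 to 1.17) in TRF1ΔN, and the average change was 0.05 ± 0.10 (adjusted p = 0.691, edgeR). Its sign turned when libraries were scaled by their totals (-0.040). Dsg2, the desmoglein of simple epithelia, had 28.0 CPM at 24 h and 16.7 CPM at 0 h in Vp16-TRF1ΔN, and 17.9 CPM at 24 h and 18.7 CPM at 0 h in TRF1ΔN. Only the Vp16-TRF1ΔN library at 24 h stood apart from the other 3. Its ratio was 1.68 (1.52 to 1.85) in Vp16-TRF1ΔN and 0.960 (0.870 to 1.06) in TRF1ΔN, and its average log2 change was 0.34 ± 0.21 (adjusted p = 0.239, edgeR).

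Among the other plakins, periplakin fell and dystonin rose. Ppl, which in keratinocytes lies at desmosomes and at the cell border, stood at 144 CPM at 24 h and 264 CPM at 0 h in Vp16-TRF1ΔN, and at 69.2 CPM at 24 h and 261 CPM at 0 h in TRF1ΔN. The 0 h libraries lay close together and the 24 h libraries were lower by different amounts. The average log2 change of Ppl was -1.39 ± 0.26 (adjusted p = 0.0146, edgeR), with ratios of 0.545 (0.527 to 0.564) in Vp16-TRF1ΔN and 0.265 (0.255 to 0.276) in TRF1ΔN. Its share of the counts of Dsp, Ppl and Evpl was 23.2% at 24 h (22.7 to 23.8) and 34.1% at 0 h (33.6 to 34.6) in Vp16-TRF1ΔN, and 11.4% (11.02 to 11.8) and 35.9% (35.4 to 36.4) in TRF1ΔN.

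Evpl, the usual partner of periplakin in the cornified envelope, was scarce, with 32 and 30 counts at 24 h and 0 h in Vp16-TRF1ΔN and 118 and 43 counts in TRF1ΔN. The TRF1ΔN library at 24 h stood above the other 3. Its ratio was 1.34 in Vp16-TRF1ΔN, with an interval of 0.790 to 2.29 that includes 1, and 3.11 (2.17 to 4.51) in TRF1ΔN. The average log2 change of 1.13 ± 0.37 did not pass (adjusted p = 0.0637, edgeR), though it passed with no filter on low counts (adjusted p = 0.0183), and over the alternatives its adjusted p ran up to 0.264 (DESeq2).

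Dst had 609 CPM at 24 h and 293 CPM at 0 h in Vp16-TRF1ΔN, and 685 CPM at 24 h and 281 CPM at 0 h in TRF1ΔN. The times did not overlap, and the lines lay close together at each time. Dst rose by 1.17 ± 0.08 (adjusted p = 0.00171, edgeR), and was 2.08-fold higher in Vp16-TRF1ΔN (2.03 to 2.12) and 2.43-fold higher in TRF1ΔN (2.38 to 2.48). Its transcripts differ widely in length and start, and an antisense gene, Gm26788, shares 1037 exonic bases with it. Whether the counting used strand is not given in the sources used here, so reads of the 2 genes may not be separable. Gm26788 itself had at most 12 counts in a library. Gm10129 likewise shares 499 exonic bases with Dsp on the other strand and had at most 15 counts, and Gm16090, which was not analysed here, shares 330 with Dsg2.

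Perp, a tetraspan membrane protein that desmosomes of stratified epithelia need and a target of p53 and p63, stood at 113 CPM at 24 h and 157 CPM at 0 h in Vp16-TRF1ΔN, and at 85.7 CPM at 24 h and 158 CPM at 0 h in TRF1ΔN. Both 24 h libraries were below both 0 h libraries. Perp fell on average, with a log2 change of -0.68 ± 0.11 (adjusted p = 0.0108, edgeR), with ratios of 0.717 (0.689 to 0.746) in Vp16-TRF1ΔN and 0.543 (0.522 to 0.565) in TRF1ΔN. The p53 gene Trp53 did not pass (0.06 ± 0.06, adjusted p = 0.488, edgeR), and Trp63 had at most 6 counts in any library.

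**Figure D3:**
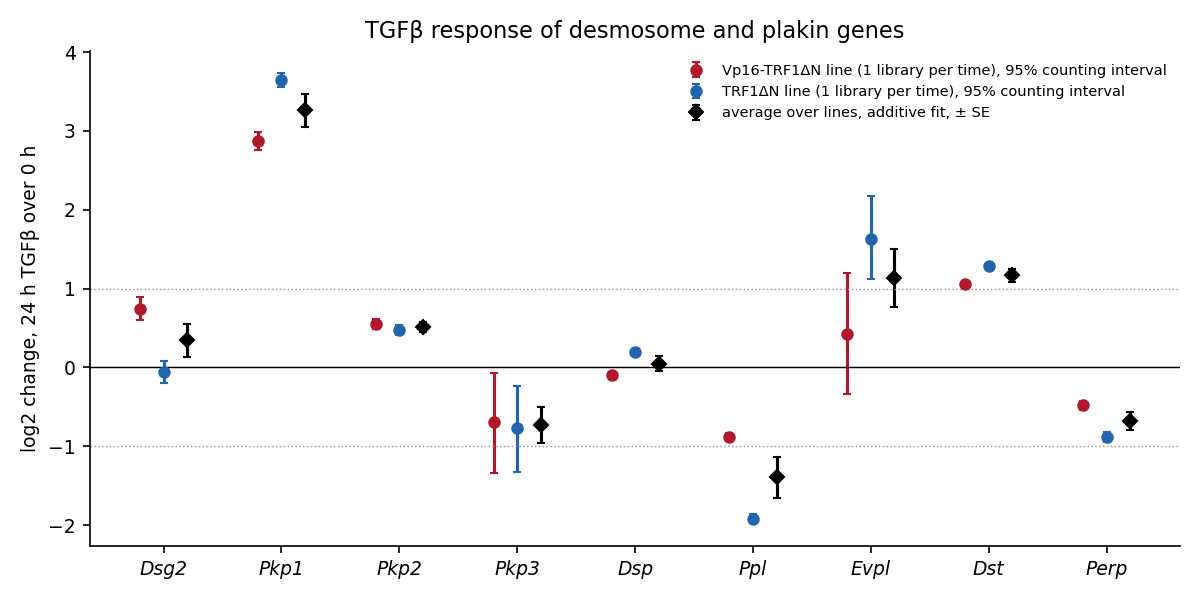
Log2 change between 24 h of TGFβ and 0 h for each member, as the ratio of 2 libraries within each line with its 95% counting interval and as the average of the additive fit with its SE. Dotted lines mark 2-fold. Pkp1 was highest (3.26 on average) and Ppl lowest (-1.39), and the points of Dsp and Dsg2 lie on opposite sides of 0 in the lines.

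Within a line, where no test is possible, only genes averaging 1 CPM or more were considered, and one was counted if it changed by 2-fold or more with a counting interval that did not include 1. In Vp16-TRF1ΔN 2 of 9 members were counted as higher after TGFβ (Pkp1 and Dst, beside 6.92% of 11777 genes) and 0 as lower (beside 9.09%). In TRF1ΔN 3 were counted as higher (Pkp1, Evpl and Dst, beside 8.4%) and 1 as lower (Ppl, beside 10.9%). The medians of the 9 log2 ratios were 0.40 in Vp16-TRF1ΔN and 0.20 in TRF1ΔN, against -0.01 and -0.02 over the 11777 genes. With libraries scaled by their totals Dst was no longer counted in Vp16-TRF1ΔN.

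Per kilobase of exon, a scale on which genes can be set side by side, the members spanned more than 2 orders of magnitude. At 0 h the order of levels from high to low was the same in both lines: Perp, Dsp, Ppl, Pkp2, Dst, Pkp1, Dsg2, Pkp3 and Evpl. Levels at 0 h ran from 80.6 CPM per kb for Perp to 0.109 for Evpl in Vp16-TRF1ΔN, and from 80.8 to 0.141 in TRF1ΔN. At 24 h Pkp1 followed Perp and Dsp in Vp16-TRF1ΔN, at 27.2 CPM per kb behind Perp (57.8) and Dsp (49.2). In TRF1ΔN at 24 h it was first, at 60.6 CPM per kb, ahead of Dsp (55.3) and Perp (43.9). Ppl stood at 20.9 CPM per kb at 24 h and 38.3 at 0 h in Vp16-TRF1ΔN, and at 10.03 and 37.8 in TRF1ΔN. With 1 library per group the spread behind this order is unknown, so whether neighbours such as Pkp1 and Dsp differ cannot be said. Lengths are the union of all GENCODE exons, 41155 bases for Dst, and understate the level of a gene expressed as a short isoform.

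The lines were compared next, since the study asks how the Vp16 fusion alters the EMT signature. Averaged over both times, no member passed the test of the line (lowest adjusted p 0.399, edgeR), nor did any of the 14305 genes (0% higher and 0% lower). A line difference that varies between the times enters the residual of this fit, so the test is less able to detect it. Without adjustment, p was under 0.05 for 2 members, Pkp1 and Evpl, and for 1779 genes in all. Pkp1 had a log2 difference of -0.79 ± 0.20 between Vp16-TRF1ΔN and TRF1ΔN (adjusted p = 0.399, edgeR). DESeq2's Wald test called it lower (adjusted p = 0.0325), as the only member among 13 genes called higher and 34 lower, while its adjusted p in the other fits lay at or above 0.0606. Evpl had a log2 difference of -1.04 ± 0.37 (adjusted p = 0.399) and Ppl of 0.53 ± 0.26 (adjusted p = 0.435) in edgeR's test.

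Before TGFβ no member was 2-fold apart between the lines. At 0 h, 0 of 9 were at least 2-fold higher in Vp16-TRF1ΔN, beside 0.178% of 11777 genes, and 0 lower, beside 0.416%. Pkp1 was farthest apart, with a ratio of Vp16-TRF1ΔN over TRF1ΔN of 0.767 (0.700 to 0.840). Evpl had a ratio of 0.771 (0.467 to 1.26) and Pkp3 of 0.851 (0.610 to 1.18), both from few counts. For Ppl, Perp, Pkp2 and Dst the ratio lay between 0.997 and 1.04.

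At 24 h the lines lay further apart. Ppl was 2.08-fold higher in Vp16-TRF1ΔN (1.99 to 2.18), 1 member beside 2.11% of all genes. Pkp1 was 2.22-fold lower (2.15 to 2.301) and Evpl 3.002-fold lower (2.02 to 4.59), 2 members beside 1.18%. Dsg2 had a ratio of 1.56 (1.42 to 1.72) and Perp of 1.32 (1.26 to 1.38), while Dsp (0.889), Dst (0.890), Pkp2 (1.08) and Pkp3 (0.901, interval 0.557 to 1.44) stayed within 1.2-fold. These are single pairs of libraries with no replicate check.

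The difference between the lines' TGFβ responses, Vp16-TRF1ΔN minus TRF1ΔN on the log2 scale, has no test either, and its intervals rest on Poisson variances. It was 1.04 for Ppl (0.96 to 1.12), the 1 member counted as at least 2-fold higher, beside 1.68% of genes, and -1.18 for Evpl (-2.06 to -0.31), the 1 counted as lower, beside 0.866%. Pkp1 followed at -0.77 (-0.91 to -0.63), then Dsp at -0.30 (-0.34 to -0.26) and Dst at -0.23 (-0.27 to -0.18). Dsg2 had 0.80 (0.61 to 1.0015), with the larger response in Vp16-TRF1ΔN. Perp had 0.40 (0.32 to 0.48), Pkp2 0.08 (-0.01 to 0.16) and Pkp3 0.08 (-0.71 to 0.88). Among the members that passed the test of the average response, Pkp1, Dst, Ppl and Perp thus had the smaller response in Vp16-TRF1ΔN, and Pkp2 did not. The share of all called genes with a smaller response in that line was not computed, so this is not read as a trait of the members. A different measure over all genes, the number at least 2-fold changed within a line, was lower in Vp16-TRF1ΔN. There 815 genes were higher and 1071 lower, against 989 and 1285 in TRF1ΔN. Such numbers depend on the cut-off and do not supply the missing share.

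Other genes of the junction and of its surroundings were described from lists. Of 11 further desmosome genes 7 had a row and 4 could be tested: 2 rose and 1 fell, with a median log2 change of 0.79. Jup, which encodes plakoglobin, rose by 0.55 ± 0.11 (adjusted p = 0.0181, edgeR), and Pkp4, a plakophilin relative, fell by 0.56 ± 0.07 (adjusted p = 0.00434). The third was Dsg3, a desmoglein of stratified epithelia, chosen after its values were seen: it had 65 and 1 counts at 24 h and 0 h in Vp16-TRF1ΔN, and 34 and 2 in TRF1ΔN. Corneodesmosin (Cdsn) did not pass.

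In the list of hemidesmosome genes and other plakins 6 of 9 rose and 2 fell (median 0.50). The plakins Plec (0.50 ± 0.10) and Macf1 (0.38 ± 0.06), both cytoskeletal linkers like dystonin, rose, as did the tetraspanin gene Cd151 (0.72 ± 0.06). The hemidesmosomal integrin genes Itga6 (-1.30 ± 0.08) and Itgb4 (-0.46 ± 0.10) fell, with adjusted p of these 5 genes between 0.00135 and 0.0209 (edgeR). Col17a1, a hemidesmosomal collagen, had 62 and 5 counts at 24 h and 0 h in Vp16-TRF1ΔN and 135 and 5 in TRF1ΔN, and rose by 4.47 ± 0.36 (adjusted p = 0.00213). Of 6 genes of proteins that bind growing microtubule ends, which Dst isoforms also meet, 5 rose and 0 fell (median 0.44). Clip2 (0.69) and Clasp1 (0.68) were highest. Lowest were Clasp2 (0.30), which passed, and Mapre1 (0.19), which did not.

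Adherens junction genes, the other cadherin-based junction, were also mixed: 6 of 12 rose and 3 fell (median 0.66). E-cadherin (Cdh1, -1.46 ± 0.16) and β-catenin (Ctnnb1, -1.07 ± 0.07) fell most, and Nectin4 (4.195 ± 0.29) and Nectin1 (2.61 ± 0.30) rose most, with adjusted p between 0.00136 and 0.00407 (edgeR). Of 12 keratins tested 4 rose and 4 fell (median 0.06). Krt8 (0.30 ± 0.07) and Krt18 (0.56 ± 0.07), the pair of simple epithelia, rose, as did Krt16 (2.44 ± 0.23), whereas Krt6a (-6.27 ± 0.13) and Krt19 (-3.42 ± 0.44) fell. Genes of basal and stratified epithelia went both ways. Krt5 had 1 and 15 counts at 24 h and 0 h in Vp16-TRF1ΔN and 1 and 21 in TRF1ΔN, and Krt14, which did not pass, had 67 and 81, and 128 and 133. Among genes chosen after their values were seen, Krt17 had 17 and 1 counts in Vp16-TRF1ΔN and 56 and 0 in TRF1ΔN, and Acta2, the smooth muscle actin of myoepithelium, had 33 and 1, and 75 and 1. Both rose (adjusted p = 0.00578 and 0.00228, edgeR), as did Krt16, Dsg3 and Col17a1 above. Of the basal list 6 of 7 genes had a row and 4 were tested, of which 1 rose (Acta2) and 2 fell (Krt5 and Mylk). It summed to 26.3 and 71.5 CPM at 24 h and 0 h in Vp16-TRF1ΔN, and to 17.2 and 63.1 CPM in TRF1ΔN, most of it from Mylk, a myosin kinase of contractile cells (23.3 and 69.1 CPM, and 12.2 and 59.7 CPM). The part of these genes in the rise of Pkp1 was not tested.

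Of the cornified envelope genes, to which Ppl and Evpl also belong, 4 of 8 fell and 1, involucrin (Ivl, 1.405 ± 0.13, adjusted p = 0.00278, edgeR), rose (median -0.36). The 4 that fell were Tgm5, S100a10, Anxa1 and Cstb. The small proline-rich genes Sprr1a (-1.31 ± 0.53) and Sprr1b (-0.57 ± 0.19) had the lowest values among those averaging 1 CPM or more but did not pass (adjusted p = 0.105 and 0.0688, edgeR). Sprr1a stood at 831 and 1012 CPM at 24 h and 0 h in Vp16-TRF1ΔN and at 225 and 1137 CPM in TRF1ΔN. Of 13 tested genes that act on desmosome assembly or turnover 4 rose and 5 fell (median 0.11), with Egfr (0.95) and Ndel1 (0.65) highest and Rnd3 (-1.18) and Cav1 (-0.83) lowest.

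Regulators of the epithelial and mesenchymal states were listed as well. Of 10 tested factors of epithelial cells, the splicing factor Esrp2 among them, 8 fell and 1 rose (median -0.86): Ehf (-2.62 ± 0.20) and Klf5 (-1.84 ± 0.19) were lowest, Gata3 (1.65 ± 0.23) rose, and Foxa1 (-0.09) did not pass. Grhl2, a grainyhead-like factor of epithelial junction genes, had 3 and 38 counts at 24 h and 0 h in Vp16-TRF1ΔN and 10 and 33 in TRF1ΔN. Of 5 tested repressors of epithelial genes 4 rose and 1 fell (median 1.74): Snai1 (3.67), Zeb1 (1.95), Snai2 (1.74) and Zeb2 (1.71) rose and Twist2 (-1.33) fell. Adjusted p of the called factors named here with a value lay between 0.000858 and 0.00877 (edgeR).

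**Figure D4:**
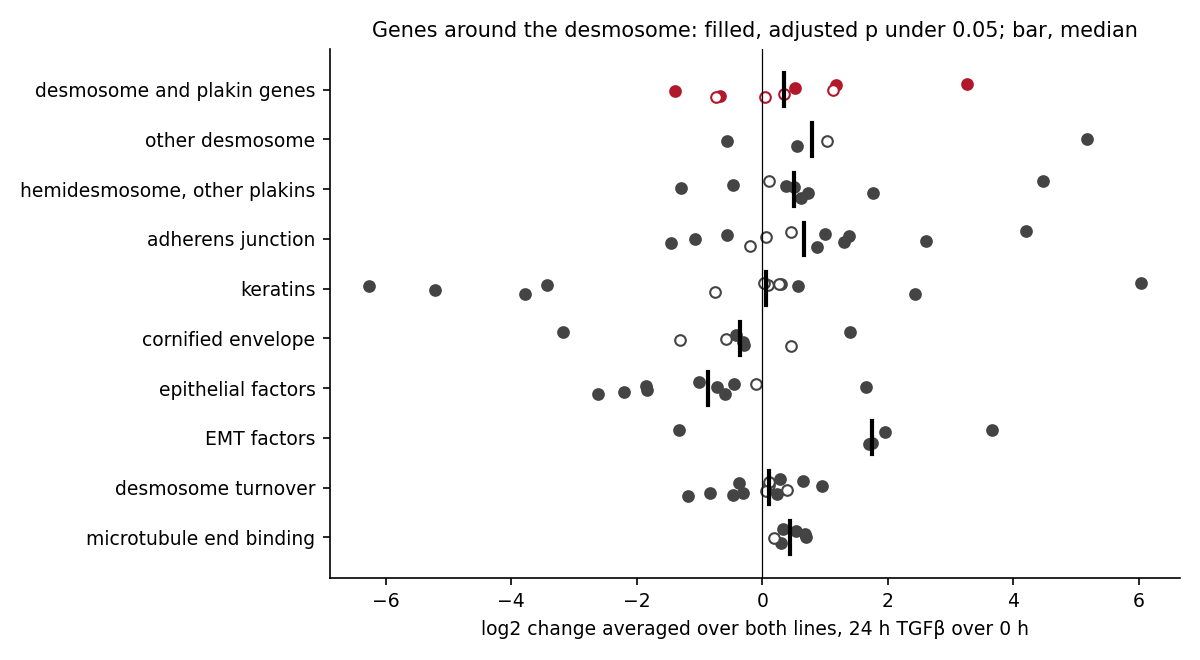
Log2 change between 24 h of TGFβ and 0 h, averaged over both lines, for the measured desmosome and plakin genes (red, top row) and for 9 lists of genes around them. Filled points passed the test and open ones did not, and a bar marks each median, which ran from -0.86 for epithelial factors to 1.74 for EMT factors and was 0.34 for the desmosome and plakin genes.

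Genes with the most similar profiles over the 4 libraries were sought for Dsp, Perp and Dst among 9680 protein-coding genes averaging 5 CPM or more, by the Euclidean distance of centred log2 CPM. They were Herc2, Rybp and Ubox5 for Dsp (distances 0.029 to 0.034), Prkag2, Cebpg and Rogdi for Perp (0.024 to 0.048) and Dlgap4, Dusp28 and Iqgap1 for Dst (0.013 to 0.042). With 4 points per gene many profiles are close by number alone, and the libraries' depth is shared. Iqgap1, a scaffold of cell junctions and actin, stood at 1400 and 689 CPM at 24 h and 0 h in Vp16-TRF1ΔN and at 1567 and 666 CPM in TRF1ΔN.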

How the data were processed

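Ribosome-depleted total RNA of 4 libraries was used. Per the submitters' processing notes, reads were checked with FastQC, aligned to mm10 with STAR, counted with HTSeq and normalized with DESeq2; their versions, the annotation and the use of strand are not given in the sources. The deposited counts are whole reads per gene. The authors' deposited normalized values are on a log2 scale (counts over a size factor, with 1 added) and were used only as an alternative.

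Construct rows (at most 0.0582% of counts) were left out. Symbols were matched for 21889 of 21971 genes. CPM were scaled by edgeR's TMM factors (edgeR 4.0.16), genes were filtered with filterByExpr, and an additive fit across all genes (line and TGFβ, 1 residual degree of freedom) was tested by quasi-likelihood, two-sided, and called at an adjusted p under 0.05. DESeq2 1.42.0 was an alternative. Log2 ratios within and between lines used a prior count of 2, and the folds and counting intervals used none. Exon lengths and positions came from GENCODE M21 (GRCm38, the same build as mm10).

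The members, lists and tests were chosen with earlier results of these data known. All members were named. From each list the 2 highest and 2 lowest changes at a mean of at least 1 CPM were named, besides some set genes.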

Additional observations from a re-analysis of the deposited data

Results flagged for a closer look

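Dsp and Dsg2 were singled out because the TGFβ response had opposite signs in the lines. The difference of responses, Vp16-TRF1ΔN minus TRF1ΔN, was -0.30 on the log2 scale for Dsp (95% counting interval -0.34 to -0.26) and 0.80 for Dsg2 (0.61 to 1.0015). Each value compares single libraries, the difference was not tested, and for Dsg2 the interval of the TRF1ΔN ratio (0.870 to 1.06) includes 1.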

How the results depend on the processing

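With 1 library per group nothing measures the spread within a group, no replicate could be left out of the additive fit without using up its last degree of freedom, and Pkp3 and Evpl have too few counts to resolve small changes. The 5 calls for TGFβ among the members held under every alternative run for that comparison (other scalings, filters, DESeq2, no line term, without mitochondrial genes). Of 126 recomputed member values of the tested comparisons 121 kept their direction and their side of the threshold. The sign of Dsp turned without scaling beyond the total (-0.040), Pkp3 and Evpl passed under the settings named beside them, and DESeq2 called Pkp1 lower in Vp16-TRF1ΔN. DESeq2 thus called 1 member lower in the line comparison where edgeR called 0. Over all genes the line comparison had 13 higher and 34 lower calls with DESeq2, 28 and 81 with no filter, and 4 lower without mitochondrial genes. The cause was not tested. Of 225 recomputed untested values 212 stayed within their counting interval, and none that was counted changed sign. Without scaling beyond the total 1 member was counted as higher after TGFβ in Vp16-TRF1ΔN.

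At a threshold of 1.5-fold in place of 2-fold, 2 members were counted as lower after TGFβ in Vp16-TRF1ΔN and 3 in TRF1ΔN. At that threshold 2 members were higher in Vp16-TRF1ΔN at 24 h, and for the difference of responses 2 were higher and 2 lower. Over all genes it counted 1635 higher and 1913 lower after TGFβ in Vp16-TRF1ΔN, 1885 and 2226 in TRF1ΔN, 132 and 142 between the lines at 0 h, 686 and 511 at 24 h, and 511 and 330 for the difference of responses. The line term pairs the libraries of a line, and without it (2 libraries against 2) the same 5 members were called for TGFβ, 3 higher and 2 lower.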
